A study of Mus musculus with 5 samples.

Results

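Styk1 and Wdr95 are 2 mouse genes whose probes were near background in thymic natural killer T (NKT) cells of mice without interleukin-15 and bright in those of wild-type mice. They were followed as all non-control probes on the array whose RefSeq transcript belongs to either gene, which gave 3 probes, 1 for Styk1 and 2 for Wdr95, among 55681 non-control probes and 20022 genes with a named probe. The 2 genes were chosen by this very difference, that is by their processed signals and background flags in IL15ko against wild-type cells, so their values are a description and carry no test. Whole-cell RNA was read on 5 one-colour Agilent arrays, 2 from IL15-/- mice (IL15ko) and 3 from wild-type mice, all on the C57BL/6 background. Each sample held NKT cells of 10 thymi pooled, enriched for T cells on magnetic beads and then sorted as CD3e+ cells that bound a CD1d tetramer. The labels give no age or sex, and do not say whether the samples of a group came from separate pools, so the p-values below measure only the spread between these samples. In pooled, sorted cells, fewer cells of a kind and less RNA per cell cannot be told apart.

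NKT cells are T cells that see lipids on CD1d. In mice they form subsets, of which the T-bet-dependent NKT1 subset makes interferon-gamma, carries many receptors of natural killer (NK) cells and depends on IL-15, a cytokine that signals through the Il2rb and Il2rg chains, the kinases Jak1 and Jak3 and the transcription factor Stat5. Styk1, also called Nok, encodes a membrane protein with a kinase-like domain inside the cell, related by sequence to receptor tyrosine kinases. In cell lines that overexpress it, it has been tied to the PI3K-Akt and MAP kinase pathways, and its human counterpart to the Beclin 1 complex of autophagy. Wdr95 encodes a protein with WD repeats, which in other proteins fold into a propeller that holds binding partners together. In the gene annotation of mouse assembly GRCm38.p6, Styk1 lies on chromosome 6 and Wdr95 on chromosome 5. The array design was annotated against the older mm9 build, so no positions are given.

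Arrays differed in brightness. Between 33.9% (IL15ko 2) and 49.6% (wild-type 3) of the probes were well above background, the scanner software's flag for a spot that clearly exceeds its surroundings, and IL15ko 1 stood at 45.1%. IL15ko 2 was the dimmest array, which raises the lowest level that can be read on it. The 7 T-cell and NKT identity genes were well above background on every array, though Cd247 was dimmer than the others. Their summed signal was 110 and 102 times the array's 75th percentile on IL15ko 1 and 2. It was 102, 106 and 104 times on wild-type 1 to 3. The Il15 probe was dim everywhere, wild-type arrays included, and therefore says nothing of the genotype labels.

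Styk1 was read by 1 probe, A_55_P2096558. Levels are given as log2 of the processed signal minus the array's 75th percentile, called the scaled log2 level. Styk1 had scaled log2 levels of -6.61 and -5.65 on IL15ko 1 and 2, against -1.52, -1.65 and -1.47 on wild-type 1, 2 and 3. Both IL15ko arrays lay far below all 3 wild-type arrays. The gap between the highest IL15ko and the lowest wild-type level was 3.99, against a spread of 0.97 within IL15ko and 0.18 within wild-type. The probe was well above background on neither IL15ko array and on all 3 wild-type arrays. Its group means were -6.13 ± 0.68 (SD, n = 2) in IL15ko and -1.55 ± 0.10 (SD, n = 3) in wild-type cells.

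Wdr95 was read by 2 probes of the same transcript. The brighter one, A_51_P497741, had scaled log2 levels of -6.81 and -6.99 on IL15ko 1 and 2, against -1.87, -1.76 and -1.94 on wild-type 1 to 3. These groups were also wide apart, with a gap of 4.87 between the highest IL15ko and the lowest wild-type level and spreads of 0.18 within either group. The means were -6.90 ± 0.13 (SD, n = 2) in IL15ko and -1.86 ± 0.09 (SD, n = 3) in wild-type cells. The dimmer probe, A_55_P2010366, had levels of -8.08 and -7.17 on IL15ko 1 and 2, against -4.51, -3.95 and -3.93 on wild-type 1 to 3. It separated the groups in the same direction, with a gap of 2.66 and a larger spread, of 0.90 within IL15ko and 0.58 within wild-type. Both probes were well above background on no IL15ko array and on every wild-type array.

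**Figure D1:**
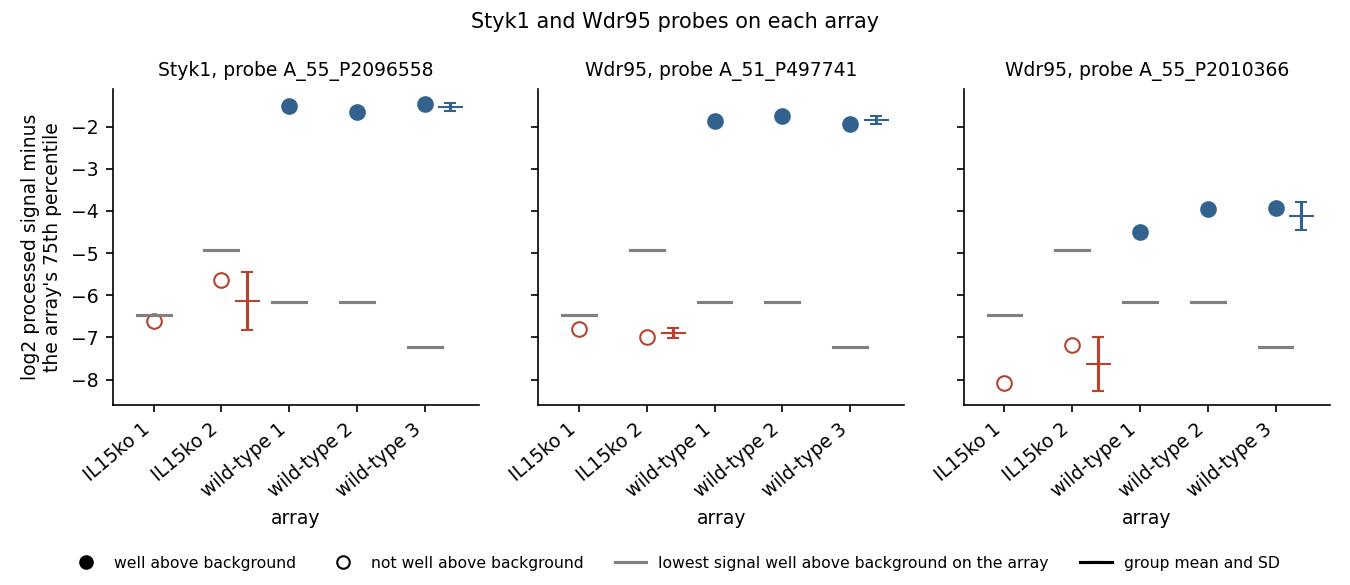
Scaled log2 level (log2 processed signal minus the array's 75th percentile, vertical axis) of the Styk1 probe and both Wdr95 probes on each array. Filled points are well above background, open points are not, grey lines mark the lowest signal well above background on that array, and bars beside the points give the group mean and SD; the open IL15ko points lie below all filled wild-type points in each panel.

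Since the IL15ko levels lay at background, the size of the fall is known only as a lower bound. The bound sets the wild-type mean against, on each IL15ko array, the higher of the probe's own level and the lowest level among probes well above background there. The bounds hold for the processed signal only, and other handling of background, given further below, gave smaller differences. For Styk1 the level in IL15ko cells was, by the processed signal, at least 17.8-fold lower than in wild-type cells. Wdr95 was at least 14.4-fold lower by its brighter probe and at least 2.97-fold lower by its dimmer one. The bounds were set mostly by the dim array: against IL15ko 1 alone they were at least 30.5-fold for Styk1, 24.7-fold for the brighter Wdr95 probe and 5.09-fold for the dimmer one, and against IL15ko 2 alone 10.4-fold, 8.39-fold and 1.73-fold. The smaller bound of the dimmer probe does not show a smaller fall.

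The pattern of both genes, well above background on neither IL15ko array and on all 3 wild-type arrays, was shown by 701 of the 55681 probes (1.26%). The opposite pattern was shown by 17 probes (0.0305%). Both counts also depend on array brightness: 33.9% of probes were well above background on IL15ko 2, against 44.6% to 49.6% on the wild-type arrays. The gene tests below called 429 lower and 450 higher, so the 2 probe counts do not compare how many genes fell and rose. Most of the 701 were weak, with a median bound of 1.05-fold, and 22 had a bound of at least 4-fold. The 17 opposite probes had a median bound of 9.82-fold, and 10 of them had one of at least 4-fold. When the 701 probes were ordered by their bound, the Styk1 probe came 4th, the brighter Wdr95 probe 6th and the dimmer one 37th. The named genes with larger bounds than Styk1 were Klra5, an NK receptor gene read here by another probe than in the tests below, and Itga1, an integrin gene, at 36.6-fold and 20.6-fold, and Klri2 (16.3-fold) stood between Styk1 and Wdr95.

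The scanner's own readings show how much signal was left. On IL15ko 1 and 2 the Styk1 spot had median intensities of 49 and 46 units over local backgrounds of 31 and 42 units. On wild-type 1, 2 and 3 the spot read 492, 355 and 858.5 units over local backgrounds of 43, 37 and 35 units. The IL15ko signal was close to the background but not equal to it: the processed signals of Styk1 on IL15ko 1 and 2, 13.8 ± 3.40 and 8.78 ± 3.06 units (the software's error of 1 spot), exceeded all 305 and all 301 negative control spots there. Before processing, 1 of the 301 negative controls on IL15ko 2 was at least as bright as the Styk1 spot. On wild-type 1, 2 and 3 they were 398 ± 39.9, 281 ± 28.3 and 707 ± 70.8 units. The software marked the Styk1 spot as positive and significant against its background on all 5 arrays. It set the same mark for both Wdr95 probes on IL15ko 1 and for neither on IL15ko 2. By this mark and the processed signals a low remaining Styk1 signal was measured in IL15ko cells, and "lost" would be too strong a word for Styk1.

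For Wdr95 the 2 IL15ko arrays differed in this respect. The processed signal of the brighter probe was 12.1 ± 3.75 units on IL15ko 1, above all 305 negative controls. On IL15ko 2 it was 3.47 ± 3.48 units, a value that 113 of the 301 negative controls reached or passed (14 of 301 before processing), and the spot (40 units) was dimmer than its local background (46 units). The wild-type signals were 312 ± 31.4, 262 ± 26.4 and 510 ± 51.1 units on wild-type 1 to 3. For the dimmer probe, 4 of 305 negative controls were at or above it on IL15ko 1 and 239 of 301 on IL15ko 2 by processed signal, and 78 of 305 and 274 of 301 before processing. Its wild-type signals were 49.9 ± 6.09, 57.3 ± 6.32 and 128 ± 13.1 units. Above the negative controls, a remaining Wdr95 signal was thus read by the brighter probe on IL15ko 1, whereas for the dimmer probe and for IL15ko 2, the dimmer array, the count depended on the processing or lay among the controls. Negative control probes match no mouse transcript, and they measure unspecific binding only for their own sequences.

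**Figure D2:**
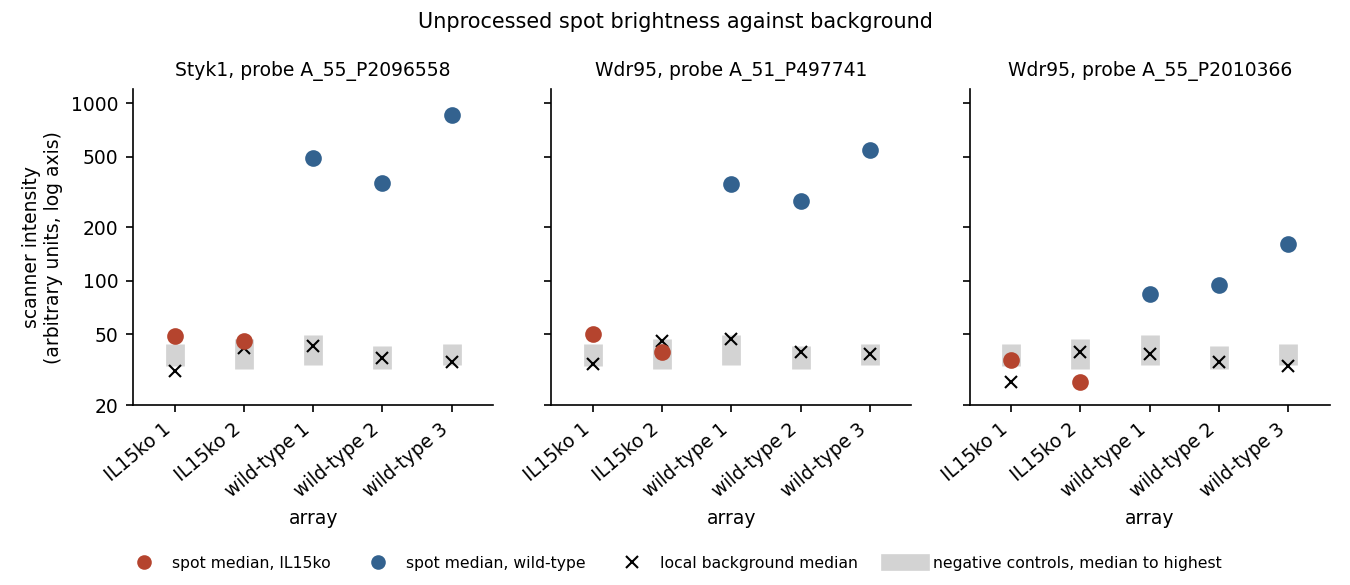
Unprocessed median intensity of the spot (coloured points), local background median (crosses) and the range from the median to the highest negative control spot (grey bars) on each array, on a log axis in scanner units, for the 3 probes. IL15ko spots stand at 27 to 50.5 units, near the negative controls, whereas wild-type spots stand at 84.5 to 858.5 units.

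Unscaled, wild-type 3 gave the brightest spots of the 3 wild-type arrays for every probe, but this followed the brightness of that array. After scaling, Styk1 on wild-type 3 lay 0.12 above the mean of wild-type 1 and 2, and the brighter Wdr95 probe lay 0.13 below it, while the dimmer one lay 0.30 above it. Over all 11989 tested genes, this difference ran from -0.99 at the 5th to 0.50 at the 95th percentile. All 3 probes lay within that range. Between wild-type 1 and 2, however, the dimmer Wdr95 probe differed by -0.56, just outside the range of -0.53 to 0.34 between the same percentiles over all tested genes. In IL15ko cells, Styk1 was higher on array 2 than on array 1 by 0.97, a comparison between values that were both below the level read as well above background.

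Other genes were tested for the difference between IL15ko and wild-type cells by limma, across the 11989 genes whose brightest probe cleared the background flag on 2 or more arrays. With p-values adjusted by Benjamini and Hochberg's method and a threshold of 0.05, 429 genes (3.58%) were called lower in IL15ko and 450 (3.75%) higher, 7.33% in all. The 2 groups did not overlap in 22.1% of the tested genes with IL15ko below wild-type and in 25.1% with IL15ko above. The median log2 difference, always IL15ko minus wild-type, was 0.01. These shares are the background for every count that follows.

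The place of Styk1 in the genome puts it at the edge of the NK gene complex, the run of genes for lectin-like NK receptors. Of the 10 annotated genes on either side of Styk1, 7 had a probe and 2 were tested. Magohb, which encodes a subunit of the exon junction complex, and Ybx3, which encodes a cold-shock-domain protein, were these 2, and they are the genes directly next to Styk1. The next annotated genes, the pseudogene Gm5582 and the snoRNA gene Gm22362, had no named probe. Magohb had scaled log2 levels of -2.07 and -2.17 in IL15ko cells and -1.16, -1.18 and -1.10 in wild-type cells. It fell by 0.97 ± 0.12 (SE) on the log2 scale (1.96-fold, limma adjusted p = 0.0186). Every IL15ko level of Magohb was below every wild-type level, by a far smaller step than that of Styk1. Ybx3 had levels of 0.35 and 0.88 in IL15ko cells and 0.78, 0.86 and 0.75 in wild-type cells, which overlapped (log2 difference -0.18 ± 0.19, limma adjusted p = 0.566). The call of Magohb was lost without IL15ko 2 (limma adjusted p = 0.0806), without wild-type 1 (0.0954) and without wild-type 2 (0.0755). The nearest receptor gene, Klra2, and the bitter taste receptor genes Tas2r130, Tas2r106 and Tas2r104 were dim on all 5 arrays, and Tas2r107 cleared the flag on 1 wild-type array.

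Further out, the 10 nearest genes with a tested probe on the Magohb side of Styk1 were all called lower in IL15ko cells, and none of the 10 nearest on the Ybx3 side was called in either direction. This wider window was set after the values were seen, so it carries no test as a group. The Magohb side holds Magohb and 9 receptor genes, 8 of the Klra (Ly49) family, whose products bind MHC class I, and Klrh1. Their log2 differences ran from -5.26 to -0.97 with a median of -2.26. Klra5 was the lowest, with levels of -5.40 and -4.38 in IL15ko cells and 0.35, 0.35 and 0.41 in wild-type cells. Klrh1 was well above background on neither IL15ko array, so its fall is known only as at least 1.40-fold. Klra1 had levels of 0.35 and 0.41 in IL15ko cells and 1.56, 1.38 and 1.23 in wild-type cells (log2 difference -1.02 ± 0.15, limma adjusted p = 0.0243), a call lost without either IL15ko array, wild-type 1 or wild-type 2 (limma adjusted p between 0.0689 and 0.104). Klra genes are close copies of one another, and their probes may bind more than 1 of them. On the Ybx3 side, where 7 of the 10 genes encode bitter taste receptors or proline-rich salivary proteins, log2 differences ran from -0.55 to 1.04 with a median of 0.12. Without wild-type 1, 1 of these 20 genes was called lower, without wild-type 2 there were 6, and there were 5 when the means of wild-type 1 and 2 stood for 1 sample.

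The surroundings of Wdr95 looked different. Of the 10 annotated genes on either side, 6 had a probe and all 6 were tested. By limma, 0 were called lower (0 also at an unadjusted p under 0.05) and 1 was called higher. The one called higher was Tex26, named for its expression in testis, the gene directly next to Wdr95. It had levels of -5.40 and -5.24 in IL15ko cells and -5.98, -6.04 and -6.30 in wild-type cells (log2 difference 0.79 ± 0.16, limma adjusted p = 0.0492). Tex26 was well above background on only 1 IL15ko and 1 wild-type array, and without IL15ko 1 or wild-type 3 it was not tested. Its call was lost without wild-type 1 (limma adjusted p = 0.143) and without wild-type 2 (0.138). The call was also lost without IL15ko 2, which left 1 IL15ko array, and the log2 difference was then 0.70. Medag, an adipogenesis gene and the next annotated gene beyond Tex26, had a log2 difference of 0.04 ± 0.38 (limma adjusted p = 0.96). On the other side, the neighbouring lncRNA genes Gm15997 and Gm35763 had no named probe. Hsph1, which encodes a heat-shock chaperone, is the nearest measured gene there, with levels of 0.99 and 1.42 in IL15ko cells and 0.56, 0.56 and 0.88 in wild-type cells. Its log2 difference of 0.54 ± 0.20 did not pass the test (limma adjusted p = 0.163). Over the 18 nearest tested genes, 10 on the Tex26 side and 8 up to the end of the chromosome on the other, log2 differences ran from -0.91 to 0.91, none was called lower and Tex26 alone was called higher; without IL15ko 1, 1 was called lower. The difference between the 2 loci was not tested.

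**Figure D3:**
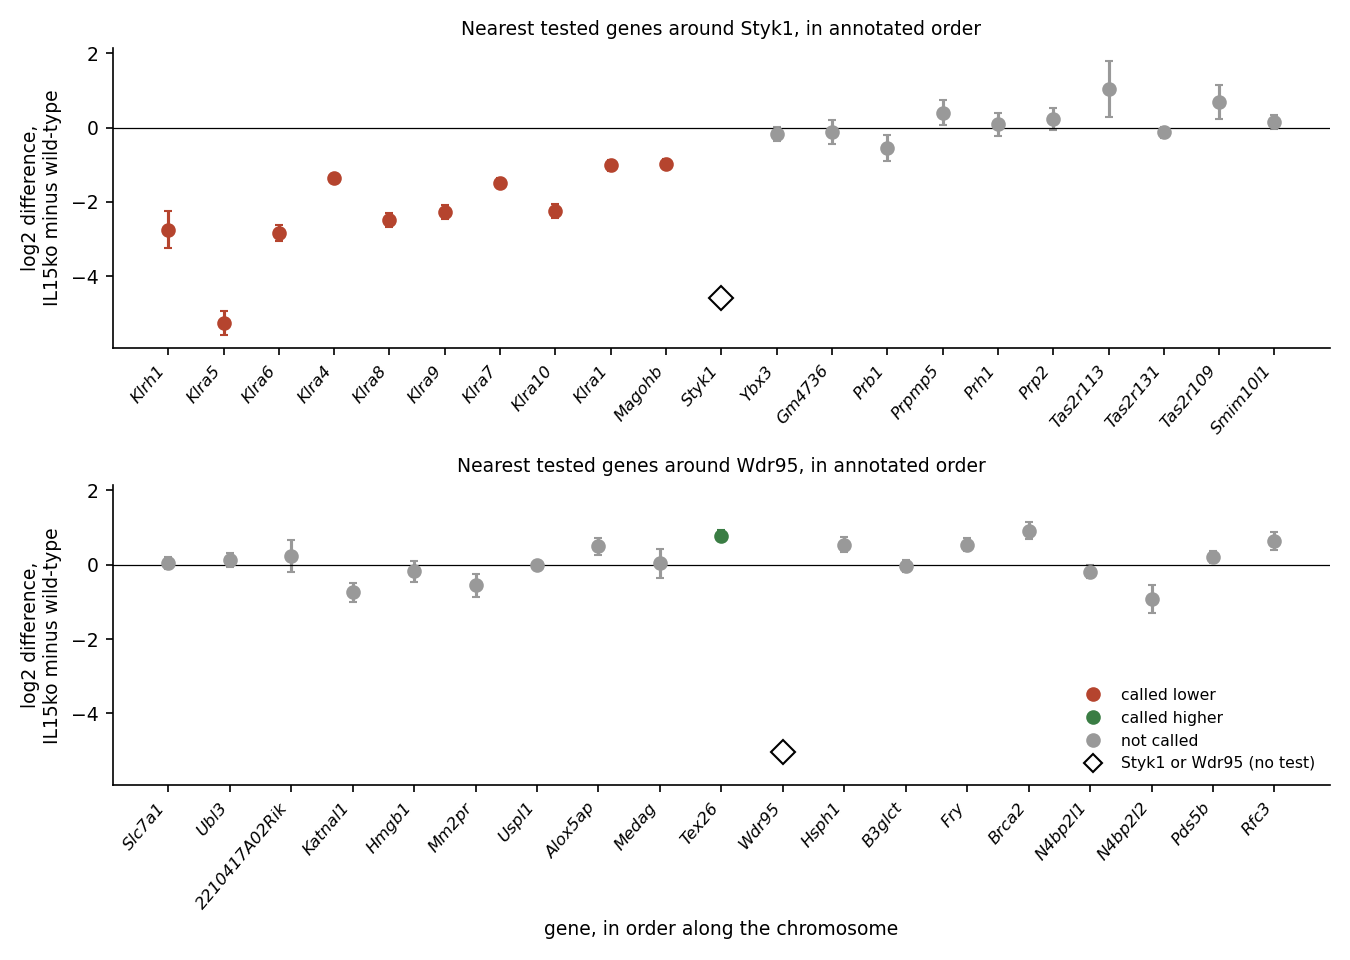
Log2 difference (IL15ko minus wild-type, vertical axis) with limma's standard error for the nearest genes with a tested probe on either side of Styk1 (upper panel) and Wdr95 (lower panel), in their annotated order. Red points were called lower, green ones higher and grey ones not called, and the open diamond is Styk1 or Wdr95; the 10 genes on the Magohb side of Styk1 lie between -5.26 and -0.97, and no gene around Wdr95 lies below -0.91.

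Of the genes related to Styk1 or Wdr95 by family, none was called lower. Of 57 receptor tyrosine kinase genes, the wider family of Styk1, 28 did not clear the background flag anywhere and 27 were tested. By limma, 0 of these were called lower (1 at an unadjusted p under 0.05) and 2 higher (7.41%, against 3.75% of all tested genes), with a median log2 difference of -0.16. Ntrk3, which encodes a neurotrophin receptor, had levels of -0.48 and -0.59 in IL15ko cells and -2.54, -2.32 and -2.06 in wild-type cells. It rose by 1.77 ± 0.18 on the log2 scale (limma adjusted p = 0.0124), and its 3 other probes had log2 differences of 1.14, 1.80 and 1.72. Ddr1, which encodes a collagen receptor, had levels of -1.66 and -1.76 in IL15ko cells and -2.83, -3.03 and -3.09 in wild-type cells (log2 difference 1.27 ± 0.14, limma adjusted p = 0.0163). Both calls were lost without IL15ko 2, wild-type 1 or wild-type 2, with limma adjusted p-values of 0.0646, 0.0566 and 0.0522 for Ntrk3 and 0.0647, 0.0669 and 0.0641 for Ddr1, and that of Ddr1 also without IL15ko 1 (0.0519). Csf1r, the receptor for a macrophage growth factor, had a log2 difference of -2.29 ± 0.46 and just missed the threshold (limma adjusted p = 0.0509), with its other probes at -0.81 and 0.28. Igf1r, an insulin-like growth factor receptor gene, had one of 1.40 ± 0.29 (limma adjusted p = 0.0534). Wild-type 3 stood below the mean of wild-type 1 and 2 in this list by a median of 0.60 on the log2 scale.

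Of the Wdr genes other than Wdr95, which share only the WD repeat in their names, 50 were tested. By limma, 0 were called lower (1 at an unadjusted p under 0.05) and 1 was called higher (2%, against 3.75%), with a median log2 difference of 0.10 and a range from -1.18 to 2.14. The one called was Wdr60, a gene of the dynein motor of cilia, with levels of -4.79 and -4.76 in IL15ko cells and -7.41, -6.95 and -6.37 in wild-type cells (log2 difference 2.14 ± 0.32, limma adjusted p = 0.0249). Wdr60 was well above background on only 1 IL15ko and 1 wild-type array, and no Wdr gene was called when any 1 of the 5 arrays was left out. Wdr12, a ribosome biogenesis gene, had a log2 difference of 0.62 ± 0.19 (limma adjusted p = 0.119), and Wdr26, part of a ubiquitin ligase complex, one of 0.48 ± 0.15 (limma adjusted p = 0.122).

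Of the signalling genes to which Styk1 has been tied in other cells, 1 was called. All 27 genes of this list, which spans the PI3K-Akt and MAP kinase pathways and the Beclin 1 complex among others, were tested (1 lower is 3.7%, against 3.58% of all tested genes), and their median log2 difference was 0.10. Pik3cd, the leukocyte PI3K catalytic subunit, was the only one called, with levels of 1.26 and 1.23 in IL15ko cells and 1.89, 1.83 and 1.95 in wild-type cells. It fell by 0.64 ± 0.12 (limma adjusted p = 0.0429), a call lost when any 1 of the 5 arrays was left out (limma adjusted p between 0.0584 and 0.184). Its other probes had log2 differences of -1.21 and -0.48. Braf, a MAP kinase pathway kinase, had one of -0.47 ± 0.13 (limma adjusted p = 0.092), and Atg14, the autophagy partner of Beclin 1, one of 0.50 ± 0.14 (limma adjusted p = 0.0927). Of the IL-15 signalling genes, 7 were tested by limma and 0 passed, with 1 lower and 1 higher at an unadjusted p under 0.05. Il2rb had levels of 1.66 and 2.60 in IL15ko cells and 3.84, 3.86 and 3.36 in wild-type cells (log2 difference -1.56 ± 0.33, limma adjusted p = 0.0543). Il2rg had a log2 difference of 0.46 ± 0.21 (limma adjusted p = 0.233) and Il15ra one of -0.45 ± 0.35 (limma adjusted p = 0.439).

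Genes of the NKT1 subset fell alongside Styk1 and Wdr95. Of 19 tested T-bet and NKT1 genes, 14 (73.7%, against 3.58% of all tested genes) were called lower and none higher, with a median log2 difference of -2.10. Tbx21, which encodes T-bet, had levels that averaged 0.88 in IL15ko and 2.65 in wild-type cells (log2 difference -1.77 ± 0.15, limma adjusted p = 0.00881, and 0.0566 without wild-type 1). The summed signal of the list was 30.9 and 41.6 times the 75th percentile on IL15ko 1 and 2, and 99.5, 101 and 99.7 times on wild-type 1 to 3. Many of these genes were already known to fall in these data when the list was drawn up. Of the 14 genes called lower, Klrk1 was well above background on wild-type arrays only, so its call rests on IL15ko signals at background. Without wild-type 1 the count was 4, and without wild-type 2 it was 7.

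NK cell genes moved the same way. Of 11 genes with a probe, 9 were tested, 7 of these (77.8%) were called lower and none higher, and their median log2 difference was -2.14. The summed signal of the list was 4.48 and 6.07 times the 75th percentile on IL15ko 1 and 2, and 23.0, 22.6 and 23.9 times on wild-type 1 to 3. Within this list, Ncr1 was dim on all 5 arrays, Eomes cleared the background flag on 1 wild-type array only, and Itga2 on 2 wild-type arrays. Tyrobp cleared it on the 3 wild-type arrays only, and Klra8, Klra4, Klre1, Klrb1c, Fcer1g, Irf8 and Gzmc on all 5 arrays. Klre1 and Gzmc were called lower, with log2 differences of -4.99 and -2.14. Klrb1c is also a member of the T-bet and NKT1 list. Fcer1g and Tyrobp, which encode adaptors of NK receptors, were called lower (log2 differences -2.49 ± 0.22 and, as a bound, at least 9.68-fold lower, with limma adjusted p-values of 0.0092 and 0.0186), the first not without wild-type 1 and the second not without wild-type 1 or 2. The call of Tyrobp rests on IL15ko signals not well above background. Without wild-type 1 the count was 1, and without wild-type 2 it was 4. The part of NK cells in the levels of Styk1 and Wdr95 was not tested.

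Markers of other cells were in part dark and in part bright. Rag1, Rag2, Ptcra, Cd8a and Cd8b1 of immature thymocytes, Cd79a, Ms4a1, Pax5 and Ebf1 of B cells, and Lyz2, Adgre1 and Fcgr1 of myeloid cells did not clear the background flag anywhere. Dntt and Cd1d1 from the thymocyte list, Cd79b from the B-cell list, Csf1r and Itgam from the myeloid list and Ccl25 from the epithelial list cleared it on all 5 arrays. Itgam, an integrin gene, had levels of 2.14 and 3.39 in IL15ko cells and 1.94, 2.35 and 1.88 in wild-type cells, which overlapped. The part of these cells in the levels of Styk1 and Wdr95 was not tested. The 2 tested thymocyte markers, the 1 B-cell marker, the 2 myeloid markers and the 3 of thymic epithelium were not called by limma, and 0, 1, 1 and 1 of them had an unadjusted p under 0.05. Summed, the thymocyte list stood at 0.50 and 0.60 times the 75th percentile on the IL15ko arrays and 0.55 to 0.63 times on the wild-type arrays. The B-cell list stood at 0.089 and 0.11 against 0.051 to 0.078. The myeloid list stood at 4.58 and 10.6 against 4.10 to 5.92, and the thymic epithelium list at 0.21 and 0.19 against 0.13 to 0.20. Most of the myeloid sum was the signal of Itgam and most of the thymocyte sum that of Cd1d1, so these sums are not levels of those cells. Of the identity genes of NKT and T cells, Zbtb16, which encodes the NKT transcription factor PLZF, was called higher (2.83-fold, limma adjusted p = 0.0161, lost without IL15ko 2, wild-type 1 or wild-type 2), and the other 6 were not called.

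Finally, the genes whose levels over the 5 arrays looked most like those of Styk1 and Wdr95 were found by distance. Each gene's levels were centred on their own mean, and the distance to the profile of Styk1 or Wdr95 was taken over the 5 arrays, so that a small distance means the same step between the groups and the same differences within them. The arrays are those that chose the 2 genes, so likeness to them is a description. For Styk1 the nearest of the tested genes was the chemokine gene Ccl5, at a distance of 0.28. Ccl5 had levels of -2.04 and -1.07 in IL15ko cells and 2.97, 3.07 and 3.38 in wild-type cells, and was by 0.97 higher on IL15ko 2 than on IL15ko 1, as was Styk1. Next came Klrc1 (0.42), Klre1 (0.56) and Klrk1 (0.64), which encode lectin-like NK receptors, then the interferon-induced membrane protein gene Ifitm2 (0.72), the receptor genes Klra5 (0.75) and Klri2 (0.86), and Ifitm1 (0.89). The genes on chromosome 6 were 5 of these 8, all of them Klr genes.

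For Wdr95 the nearest gene was Ifitm1, at 0.31. Its levels were -7.08 and -7.18 in IL15ko cells and -2.15, -2.21 and -2.51 in wild-type cells, so that, as for Wdr95, the 2 IL15ko arrays lay close together. Next was Gzma (0.75), a granzyme gene, with levels of -3.08 and -3.11 in IL15ko cells and 2.64, 2.58 and 2.62 in wild-type cells. Klrc1 (0.84), Klra5 (0.90), Klrk1 (0.96), Ccl5 (0.98), Styk1 itself (0.99) and the granzyme gene Gzmb (1.13) followed. The lists of 8 shared 5 genes. Styk1 was the 7th nearest to Wdr95, and Wdr95 the 11th nearest to Styk1, at the same distance of 0.99. Ordered by Pearson's correlation, which ignores the size of the step, Styk1 was only 161st from Wdr95, and of the genes near Styk1, Klra5 was 3rd, Ccl5 13th, Ifitm2 134th, Klri2 171st and Ifitm1 188th. They differed mostly on IL15ko 2, where Styk1 lay 0.97 above and Wdr95 0.18 below its level on IL15ko 1. For probes that were dim in IL15ko cells, such differences rest on signals not well above background. So does the closeness of the IL15ko arrays for Wdr95 and Ifitm1. Among these dim probes were those of Styk1, Wdr95, Klrc1, Klrk1, Klri2 and both Ifitm genes, so distances and ranks rest in part on such signals.

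**Figure D4:**
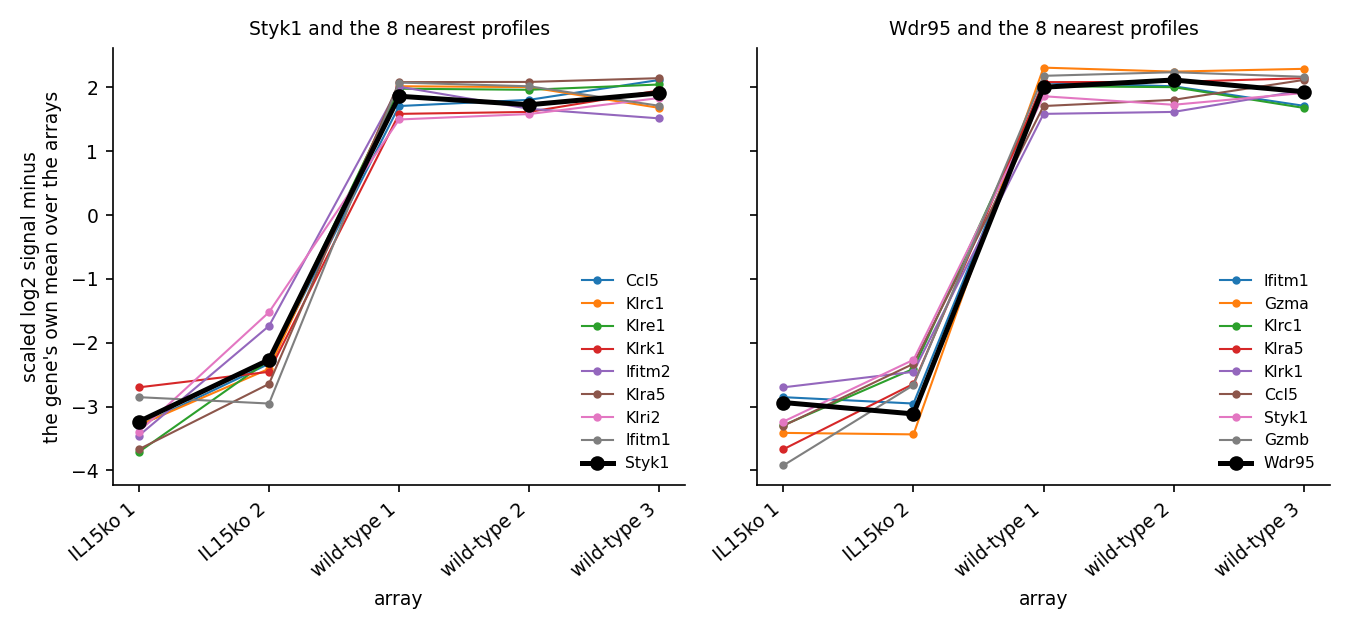
Scaled log2 level of Styk1 (left, black) and Wdr95 (right, black) with their 8 nearest genes, each minus its own mean over the 5 arrays, on each array. All profiles are lower on the 2 IL15ko arrays than on the 3 wild-type arrays.

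The size of the fall depended on how background was handled. On the authors' deposited table the log2 differences were -3.78 for Styk1 and -3.76 for Wdr95, and when background was removed by normexp, with 50 units added, they were -2.31 and -1.96. These lie below the bounds given above, whose log2 values were 4.15 and 3.85, so the bounds hold for the processed signal only. With normexp the dimmer Wdr95 probe had levels of -4.42 and -3.23 on IL15ko 1 and 2 and -3.40, -2.94 and -3.39 on wild-type 1 to 3, which overlap. For Styk1 and the brighter Wdr95 probe every IL15ko level stayed below every wild-type level in each of the 6 scalings and background corrections. Scaling by quantiles, by the median or over all probes left Styk1 between -4.58 and -4.49 and Wdr95 between -5.53 and -5.01.

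**Figure D5:**
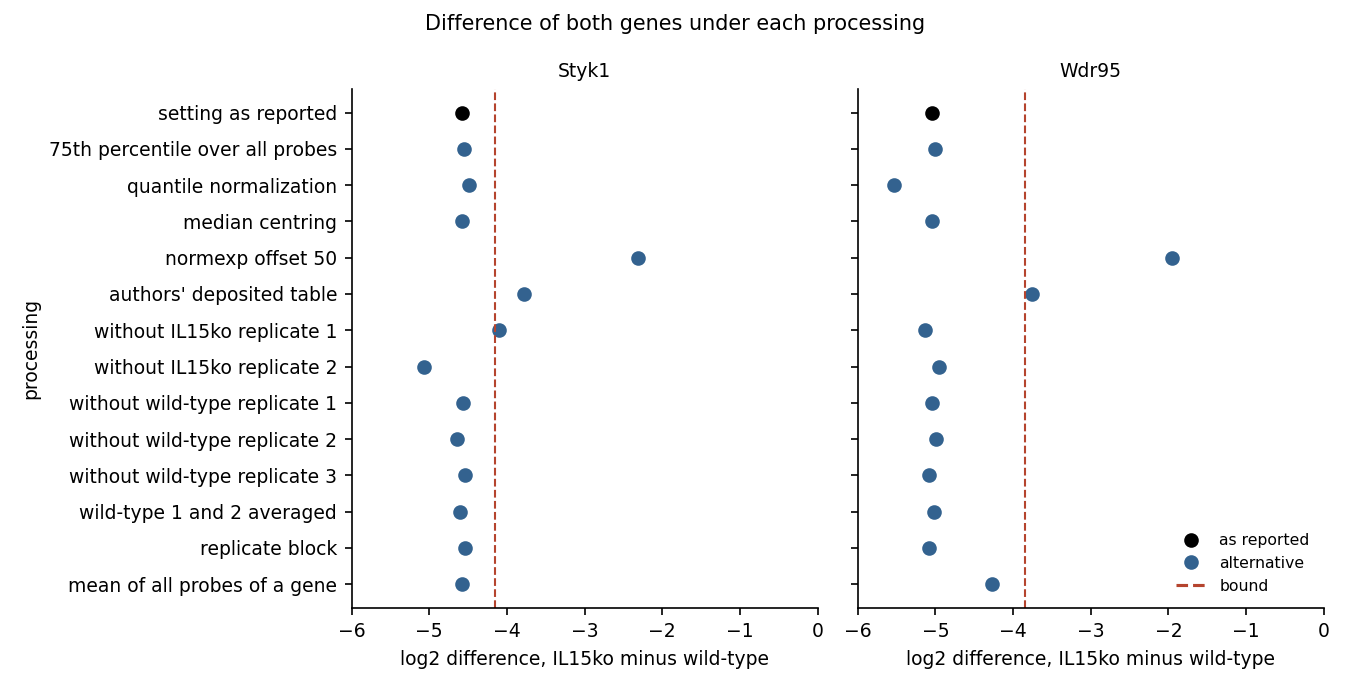
Log2 difference (IL15ko minus wild-type) of Styk1 and Wdr95 as reported (black) and under each alternative processing (blue), with the bound as a dashed line. All values lie below 0; those with normexp and from the deposited table lie to the right of the bound for both genes, as does Styk1 without IL15ko 1 (-4.10).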

How the data were processed

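Spot intensities on a linear scale were deposited as scanner output of Agilent Feature Extraction 10.7.1.1, per the file headers, background-subtracted within each array with no scaling across arrays. limma is also named, without settings, in the submitters' processing notes. The authors' deposited value table holds background-subtracted intensities, its exact steps not given in the sources used here. The deposited flags per spot, which are 0 or 1 and have no unit, were used as given.

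Control features were dropped, as were values with an outlier flag, spots of 1 probe were averaged, and log2 processed signals were scaled to each array's 75th percentile over those 18517 probes that cleared the background flag on every one of the 5 arrays. No member spot was saturated. Transcript accessions, without versions, were named through RefSeq's annotation of GRCm38.p6, which gave 1 symbol to 26425 of 55681 probes and left 29256 unnamed. A gene was represented by its brightest probe. The groups were compared with limma 3.58.1 (R 4.3.3; lmFit, then eBayes) without covariates, with 3 residual and 2.28 prior degrees of freedom, and p-values were adjusted over all 11989 tested genes. Precision is limited by there being 5 arrays. The fit was tested on simulated data. Normexp used the spot median and the local background median, in place of the spot mean that had been planned. The text names every probe of both genes, the 8 nearest profiles, the 2 nearest annotated and all called neighbours, up to 4 members of a list by smallest p and any needed for a count. Itga1, Klri2, Tas2r and Klra2 in the text, and Klra genes of the wider window, were picked with their values in view, as were the wider windows of tested genes around both loci. The members, the lists and the tests were chosen with earlier results of these data known. All 5 arrays were on 1 slide. Replicate numbers of the 2 groups are not said to mark shared animals or days. Some members of the lists are not reported here.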

Additional observations from a re-analysis of the deposited data

How the results depend on the processing

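Both genes kept their negative direction in all 13 alternatives. Styk1 moved furthest with normexp (-2.31), in the authors' deposited table (-3.78) and when an IL15ko array was left out. It ranged from -5.07 to -4.10 over the 5 arrays left out in turn. Wdr95 moved furthest with quantile normalization (-5.53), with normexp (-1.96), in the deposited table (-3.76) and with both probes averaged (-4.27). It ranged from -5.13 to -4.95 with an array left out.

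Over all tested genes, 429 called lower became 1 with normexp, 63 with wild-type 1 and 2 averaged, 3 with no filter on dim probes and 696 with a trended robust prior, and 27 (without wild-type 1) to 488 with an array left out. The 450 called higher became 0, 33, 0 and 820 under the same settings, and 6 (without wild-type 1) to 423 with an array left out. List members called lower, 21 as reported, were 1 with normexp, 10 with the averaged arrays, 1 without the filter and 5 to 21 with an array left out; those called higher, 4 as reported, were 0, 0, 0 and 0 to 3, and 7 with the trended prior. Neighbours of Styk1 called lower, 1 as reported, were 0 with normexp, the averaged arrays or no filter, 0 to 1 with an array left out, and 10 among the nearest tested genes, a window chosen after seeing the data. Neighbours of Wdr95 called higher, 1 as reported, were 0 with normexp, the deposited table, the averaged arrays, all probes of a gene averaged or no filter. They were also 0 with the stricter filter, the trended prior or any 1 wild-type array left out. With either IL15ko array left out, the reported call was not kept. Tex26, the one called as reported, was not tested with the stricter filter, without IL15ko 1 or without wild-type 3. With normexp and with no filter, 0 of the nearest tested genes around Styk1, 1 T-bet and NKT1 gene and 0 NK cell genes were called lower. Normexp moved the median of all tested genes to 0.22. The cause of these moves was not tested. Promoter motifs were not analysed here.

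With the replicate number as a block (replicate block), Styk1 stood at -4.54 and Wdr95 at -5.08, 249 genes were called lower and 149 higher, and neighbours of Styk1 called lower and of Wdr95 called higher were 0 each. Deviations of same-numbered arrays correlated at -0.13 and 0.21. With so few arrays these values cannot decide whether same-numbered arrays shared animals or days, which was not tested.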
